A study of Mus musculus with 9 samples.

Results

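Chromosome 12 carried 5708 of the 146734 ATAC-seq peaks measured in D2A1-d cells, and these are all peaks whose deposited name places them on that chromosome, apart from the stretch between 109.4 and 110.35 Mb, which is not analysed here and holds 65 peaks. D2A1-d is a mouse breast carcinoma line. The cells, labelled untreated, had been transduced with a non-targeting control (NTC, genotype WT) or with a short hairpin RNA against Med4 (Med4 knockdown, hairpin #1 or #4). Each of the 3 groups has 3 libraries, labelled as biological replicates. The labels do not say whether these came from separate transductions, so the p-values below measure only the spread between libraries, which may be technical. The chromosome was chosen by its log2 folds against NTC, which had been seen to be low, so those folds are given as a description, without p-values. The difference between the hairpins had not itself been used in that choice and was tested. It is made of those same folds, so its tests are not independent of the choice.

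ATAC-seq inserts sequencing adapters into accessible DNA with a transposase, and the reads in a peak report how often that stretch was cut. MED4 is a protein of the Mediator complex, in its middle part. Mediator bridges transcription factors bound at enhancers and promoters and the RNA polymerase II machinery. In reads per peak, less DNA of a chromosome and lower accessibility across it cannot be told apart.

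Values are normalised read counts per peak. Libraries held 44.8 to 98.9 M reads in peaks (M, mega). The chromosome 12 peaks held 1.65 to 3.83 M reads per library, a median of 108 to 251.5 reads per peak. The 3 libraries of hairpin #4 held 44.8 to 87.6 M reads and those of hairpin #1 72.8 to 98.9 M reads, and the 2 shallowest libraries of all were of hairpin #4. In NTC, the gene-end peaks of the mesenchymal markers Vim and Fn1 averaged 4155 and 2460. Those of Krt14 and Krt18 averaged 344 and 164, and Krt8, Cdh1, Epcam, Krt5, Trp63, Ptprc, Cd3e, Pecam1 and Adipoq had no gene-end peak. Peaks for Cdh5 (239) and Myod1 (144) were also present.

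Of the chromosome 12 peaks, 268 covered an annotated transcription start, and most of these had lower values with both hairpins. The promoters below were taken among start-site peaks with a mean of at least 50 whose gene is not a predicted one. Only peaks called the same way with each hairpin against NTC were used (calls are defined below). Shown are the 4 with the highest log2 fold over both hairpins among those called higher, and the 2 with the lowest among those called lower. The exceptions on a low chromosome can so be read beside low promoters. The promoter sequences run from 250 bases before to 50 bases after the start, 5′ to 3′ on the gene's strand, and come from RefSeq (GRCm38.p6). Capitals mark matches to any of 5 motifs on either strand, and matches may overlap. The AP-1 motif was searched as TGANTCA. The E-box was searched for by the letters CACGTG. The GC box was taken to be GGGCGG. The CCAAT box was searched by the letters of its name. For the TATA box the search used TATAAA.
Map3k9, chr12:81781121-81781420, minus strand: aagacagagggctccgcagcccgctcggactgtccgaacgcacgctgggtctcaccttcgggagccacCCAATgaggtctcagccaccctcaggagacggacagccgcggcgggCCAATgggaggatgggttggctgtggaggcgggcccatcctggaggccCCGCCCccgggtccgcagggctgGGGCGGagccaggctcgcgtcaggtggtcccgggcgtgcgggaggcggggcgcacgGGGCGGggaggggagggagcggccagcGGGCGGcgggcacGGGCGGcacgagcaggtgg
Mlh3, chr12:85270542-85270841, minus strand: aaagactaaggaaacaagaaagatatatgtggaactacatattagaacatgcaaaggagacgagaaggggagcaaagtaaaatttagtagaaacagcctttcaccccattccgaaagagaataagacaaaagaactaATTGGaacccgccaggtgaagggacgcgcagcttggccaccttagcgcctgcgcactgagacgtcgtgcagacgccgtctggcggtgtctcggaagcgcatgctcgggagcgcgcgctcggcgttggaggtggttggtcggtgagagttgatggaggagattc
Kcnk10, chr12:98578164-98578463, minus strand: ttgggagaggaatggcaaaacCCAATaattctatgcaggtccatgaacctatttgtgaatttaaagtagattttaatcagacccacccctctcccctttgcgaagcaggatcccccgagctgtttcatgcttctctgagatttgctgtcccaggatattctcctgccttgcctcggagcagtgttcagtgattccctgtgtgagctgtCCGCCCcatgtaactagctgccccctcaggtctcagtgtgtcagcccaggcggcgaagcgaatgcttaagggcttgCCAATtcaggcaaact
Mycn, chr12:12941787-12942086, minus strand: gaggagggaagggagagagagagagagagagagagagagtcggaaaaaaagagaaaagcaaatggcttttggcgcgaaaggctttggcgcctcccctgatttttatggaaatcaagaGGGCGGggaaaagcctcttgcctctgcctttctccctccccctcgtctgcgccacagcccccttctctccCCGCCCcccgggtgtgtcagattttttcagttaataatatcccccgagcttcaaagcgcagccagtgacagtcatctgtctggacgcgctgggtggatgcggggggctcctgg
Adcy3, chr12:4133147-4133446, plus strand: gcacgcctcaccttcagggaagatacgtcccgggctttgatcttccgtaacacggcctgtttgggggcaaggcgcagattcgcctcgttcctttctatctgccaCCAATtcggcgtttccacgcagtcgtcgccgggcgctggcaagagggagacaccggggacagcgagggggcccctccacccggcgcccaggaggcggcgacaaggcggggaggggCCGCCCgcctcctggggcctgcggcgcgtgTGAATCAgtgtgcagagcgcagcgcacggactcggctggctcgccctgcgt
Pax9, chr12:56695221-56695520, plus strand: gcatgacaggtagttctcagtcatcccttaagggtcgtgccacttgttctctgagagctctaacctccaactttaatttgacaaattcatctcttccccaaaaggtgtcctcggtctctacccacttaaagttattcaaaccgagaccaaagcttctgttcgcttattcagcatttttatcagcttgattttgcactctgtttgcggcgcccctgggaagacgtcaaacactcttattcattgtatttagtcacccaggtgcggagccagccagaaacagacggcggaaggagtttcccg

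The start-site peak of Map3k9, which encodes a mixed-lineage kinase upstream of JNK, held 29.9, 44.2 and 40.1 normalised counts in NTC, 388, 393 and 449 with hairpin #1, and 341, 390.1 and 363 with hairpin #4. That of Mlh3, a DNA mismatch repair gene, held 38.7, 27.7 and 41.7, then 205, 229 and 186, then 206, 206 and 228. Both were low in NTC and high in all 6 shMed4 libraries, with no overlap. The peak of Kcnk10, a background potassium channel gene, held 20.2, 19.5 and 24.5 in NTC, 72.0, 58.4 and 57.2 with #1, and 90.0, 81.9 and 88.2 with #4. The Mycn start-site peak held 16.1, 37.0 and 18.0 in NTC, 61.6, 31.6 and 37.4 with #1 and 82.2, 125 and 77.6 with #4. Mycn encodes a MYC-family transcription factor, and here the NTC and #1 libraries overlapped while those of #4 stood above both.

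At the low end, the start-site peak of Adcy3, an adenylate cyclase gene, held 224, 208 and 177 in NTC, 77.6, 63.3 and 97.9 with #1, and 101, 102 and 125 with #4. The peak of Pax9, a paired-box developmental factor, held 1525, 1651 and 1542 in NTC, 959, 973 and 965 with #1, and 739.6, 771 and 809.6 with #4. Pax9 was thus lower with #4 than with #1, the opposite order to Adcy3. Of these 6 promoters, the Adcy3 one held an AP-1 match, GC boxes were found in those of Map3k9, Kcnk10, Mycn and Adcy3, and CCAAT boxes in those of Map3k9, Mlh3, Kcnk10 and Adcy3. The Pax9 promoter held none of the 5 motifs.

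Among the 268 start-site peaks, 13 were called higher with each hairpin against NTC (limma, Benjamini-Hochberg adjusted p under 0.05 over all tested peaks), and 200 were called lower. Over all tested peaks those calls made up 17.6% and 13.5%. Peaks within 1 kb of an annotated start are a wider set than the 268. Of the 411 such peaks on chromosome 12 those calls made up 5.35% and 70.8%, and on other chromosomes 6.61% and 24.1%. The promoters of the 13 had a median of 56.7% G+C and 15 CpG, and those of the 200 had 62.5% and 24. A GC box was present in 8 of the 13 and 133 of the 200, beside 67.9% of all 268. Of all 32851 RefSeq promoters, 35.7% held a GC box, 37.4% a CCAAT box and 13.6% a TATA box. AP-1 matches were found in 0 of the 13 and 10 of the 200, against 4.85% of the 268 and 7.81% of all promoters. E-box matches were found in 0 and 23 of them, against 9.70% of the 268 and 7.15% of all. CCAAT boxes were found in 6 and 81, against 39.9% of the 268, and TATA boxes in 0 and 9, against 3.73%. The remaining higher start-site peaks were those of Crip2, Tmem121, Kcnf1, Mfsd2b, Psma6, Cdkl1, Rab15, Matn3 and Kcnk13. A match is a description of the letters and not a bound site.

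Across the chromosome, the median log2 fold against NTC was -0.24 with hairpin #1 and -0.15 with hairpin #4. The median over all tested peaks was -0.01 and -0.02. Only chromosome 2 was lower among the 20 chromosomes, at -0.32 and -0.16. With #4, chromosomes 11 (-0.13) and 13 (-0.12) stood close to chromosome 12. The gene-end median with #4 was -0.230 on chromosome 12. It was -0.218 on chromosome 13, -0.217 on 2, -0.215 on 10 and -0.201 on 11. Per library, the chromosome 12 median stood 0.23 to 0.24 below that of the other chromosomes with #1, since the 3 values were -0.232, -0.240 and -0.235. With #4 they were -0.141, -0.131 and -0.137. The NTC libraries varied by 0.0015 (SD, n = 3) about 0, on which they are centred, and the #1 and #4 libraries did not overlap each other.

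**Figure D1:**
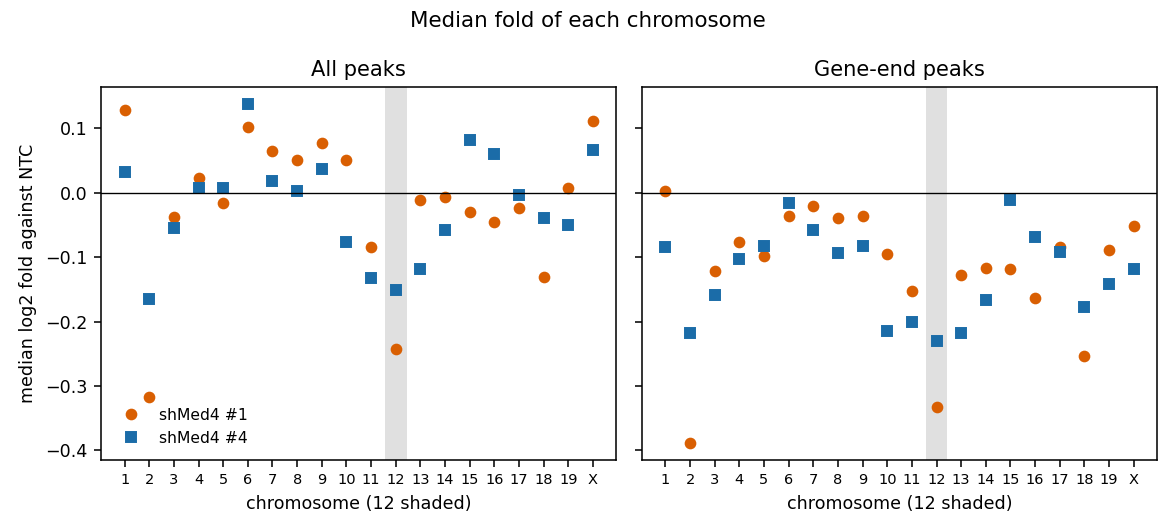
Median log2 fold against NTC (vertical axis) of the peaks of each chromosome (horizontal axis), for all peaks (left) and for peaks within 1 kb of a gene's end (right), hairpin #1 as circles and #4 as squares. Chromosome 12 (shaded) is the second lowest over all peaks with both hairpins, at -0.24 and -0.15, and its gene-end medians are -0.33 and -0.23.

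With hairpin #1, 2734 of the 5708 peaks (47.9%) were called lower and 966 (16.9%) higher. Over all tested peaks 52.7% were called, 24.9% lower and 27.9% higher. With hairpin #4, 2159 (37.8%) were called lower and 1065 (18.7%) higher, against 50.4% called over all tested peaks, 24.3% lower and 26.2% higher. Called lower with both were 1695 peaks (29.7%, background 13.5%), and higher with both 630 (11.04%, background 17.6%). In 172 peaks (3.01%) the hairpins were called in opposite directions, against 3.17% over all tested peaks. With every library centred on its chromosome 12 median, 1281 were higher and 1838 lower with #1, so the higher share of calls went from 26.1% to 41.1%. That centring takes out the median level of each library and not the median fold, so part of the low folds remains in these calls. Folds beyond 2 were few: 273 of the 5708 peaks were more than 2-fold lower with #1 and 83 with #4, while 258 and 326 were more than 2-fold higher. Of the 140956 peaks on other chromosomes, 3487 and 1267 were more than 2-fold lower, and 9329 and 10129 higher.

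The offset from the same class of peak on other chromosomes was close to that of the whole chromosome in classes set by gene position and by height. Gene-end peaks, at most 1 kb from where a protein-coding gene starts or stops, numbered 527 and had medians of -0.33 with #1 and -0.23 with #4. Gene-end peaks elsewhere had medians of -0.10 and -0.12, and the offsets were -0.234 and -0.111. Peaks inside genes but away from their ends (2611 peaks) stood at -0.236 and -0.147. Peaks outside genes (2570) stood at -0.249 and -0.141. Strong peaks, those with a mean over the 9 libraries above the median of 194.8 over all tested peaks, stood at -0.230 and -0.124 (2855 peaks). Weak peaks, at or below it, stood at -0.256 and -0.152 (2853 peaks).

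Peaks near start sites had a narrow spread. The 411 peaks within 1 kb of an annotated start had a median of -0.34 with #1 and quartiles of -0.41 and -0.26, and 92.0% of them lay below 0. Over all chromosome 12 peaks the quartiles with #1 were -0.47 and 0.08. With hairpin #4 the start-site median was -0.23, with quartiles of -0.33 and -0.16, and 89.3% lay below 0. Start-site peaks on other chromosomes had medians of -0.09 and -0.12.

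Followed along the chromosome in windows of 5 Mb, the fold was low almost from end to end. Of the 24 windows with at least 20 peaks, 23 had a median below 0 with hairpin #1 and 20 with hairpin #4. With #1 the lowest window was 110 to 115 Mb (-0.34, 431 peaks) and the highest 45 to 50 Mb (0.10, 42 peaks). With #4 the lowest was 105 to 110 Mb (-0.24, 264 peaks) and the highest again 45 to 50 Mb (0.54). The first window, 0 to 5 Mb, stood at -0.24 and -0.20, and the last, 115 to 120 Mb, at -0.17 and -0.12. In windows of 1 Mb, 73 of the 80 with at least 20 peaks were below 0 with #1, and 66 with #4. Their quartiles were -0.30 and -0.16 with #1 and -0.21 and -0.07 with #4. The 3 peaks beyond 120 Mb, all called higher with both hairpins, had medians of 0.92 and 0.78.

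Strong and weak peaks were also followed apart. Over the 22 windows with at least 20 strong peaks, their medians ran from -0.28 to -0.01 with #1 and all 22 were below 0. With #4 they ran from -0.23 to 0.11, with 19 below 0. The highest were 90 to 95 and 95 to 100 Mb, at -0.01 and -0.01 with #1 and 0.11 and 0.01 with #4. The window of 45 to 50 Mb, the highest over all peaks, holds 14 strong peaks, with medians of 0.15 and 0.61, and is left out of these 22, as is 60 to 65 Mb, also with 14. In single libraries the strong-peak median was below 0 in all 3 libraries in 20 windows with #1 and 19 with #4.

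Weak peaks were numerous enough in all 24 windows. Their medians ran from -0.51 (110 to 115 Mb) to 0.05 (45 to 50 Mb) with #1, and from -0.29 (105 to 110 Mb) to 0.47 (45 to 50 Mb) with #4. Over the 22 windows shared with the strong peaks, the weak-peak medians ran from -0.51 to -0.06 with #1, a wider range than that of strong peaks, and from -0.29 to 0.06 with #4, a range about as wide. With #1 the weak peaks were lower than the strong peaks of the same window in 19 of 22 windows, with a median difference of -0.10. With #4 they were lower in 12 of 22, with a median difference of -0.01. Weak peaks were above 0 with #4 in 5 of 24 windows, among them 60 to 65 Mb (0.38, 25 weak peaks).

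**Figure D2:**
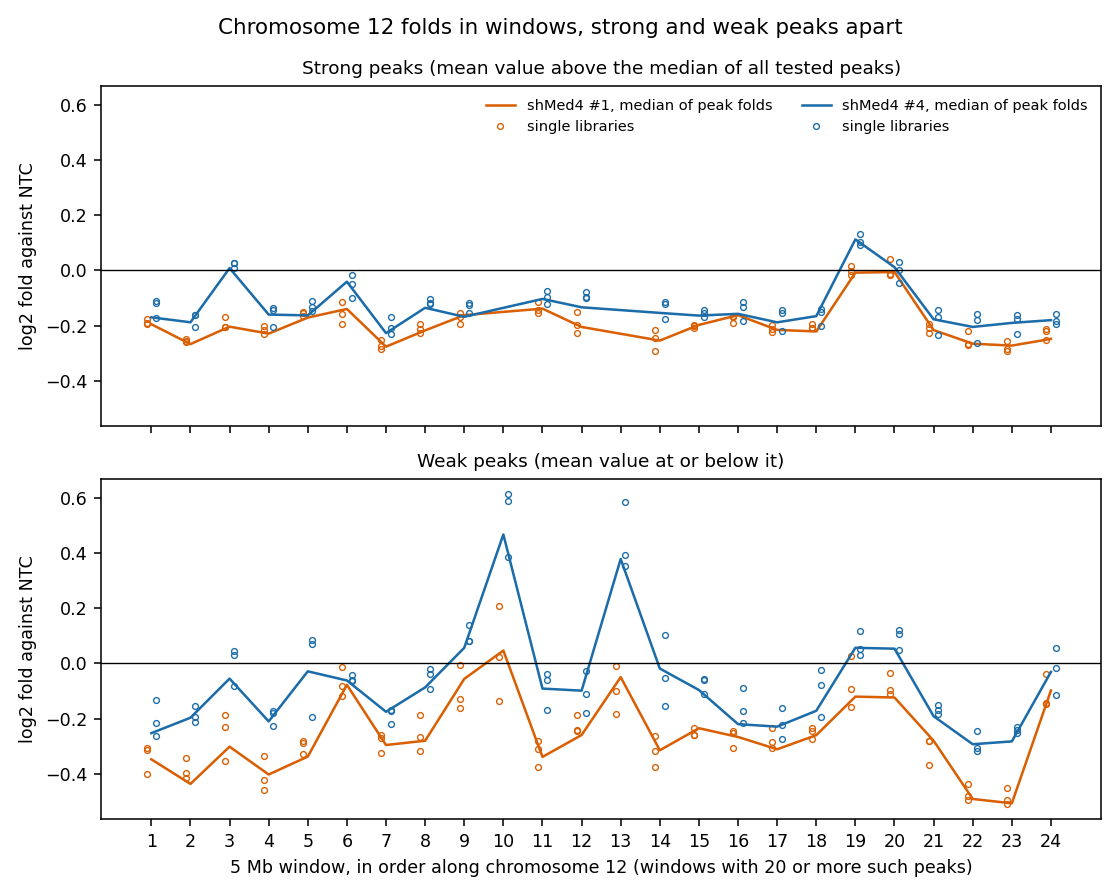
Median log2 fold against NTC (vertical axis) in 5 Mb windows in order along chromosome 12 (horizontal axis), for strong peaks (top) and weak peaks (bottom). Lines are medians of peak folds and open circles single libraries, orange for hairpin #1 and blue for #4. Strong peaks lie between -0.28 and 0.11 over their 22 windows, and weak peaks between -0.51 and 0.47 over all 24, or up to 0.06 over the same 22.

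No single step along the chromosome accounted for much of the variation. The best single step over 1 Mb medians, weighted by the number of peaks, fell at 103 Mb with #1, where the level changed by -0.07, and at 101 Mb with #4, where it changed by -0.09. These steps accounted for 1.68% and 1.82% of the variance between windows. A pair of bounds at 92 and 98 Mb accounted for 52.4% and 35.9%. The same pair was found in each of the 6 shMed4 libraries taken alone. With strong peaks only, the first bound moved to 88 Mb, the level between the bounds was 0.27 and 0.31, and the pair accounted for 21.8% and 21.1%. With windows of 2 Mb the bounds were 94 and 98 Mb and accounted for 73.8% and 60.6%.

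The 92 to 98 Mb stretch held 52 peaks, 41 of them weak. Its median peak had 33.1, 34.9 and 28.6 normalised counts in the NTC libraries, 79.2, 74.6 and 69.9 with #1, and 108, 107 and 98.8 with #4. The median log2 fold was 1.40 with #1 and 1.69 with #4. Of the 52 peaks 41 were called higher with both hairpins, against 17.6% over all tested peaks. The bounds were placed by these same folds, so high values between them are a description only. On each side the weighted level was low, at -0.22 before and -0.26 after with #1, and at -0.12 and -0.17 with #4. The 11 strong peaks of the stretch were also high, with medians of 1.63 and 1.41.

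Folds also differed by the density of peaks. Chromosome 12 peaks with more than 50 other peaks within 0.5 Mb (4458 peaks) had medians of -0.26 with #1 and -0.17 with #4. Those with 11 to 50 neighbours (1166) had -0.15 and -0.06. The 84 peaks with at most 10 neighbours had 0.05 with #1 and 0.97 with #4. On other chromosomes the same classes had -0.02 and -0.04, then 0.11 and 0.11, then 0.51 and 0.99, so the order by density was also present there. The offset from other chromosomes was -0.454 and -0.028 for the 84 peaks, and -0.238 and -0.136 for those with more than 50 neighbours. In the 92 to 98 Mb stretch 17 peaks had at most 10 neighbours, 35 had 11 to 50 and 0 had more. The part that density plays in the window values was not tested.

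**Figure D3:**
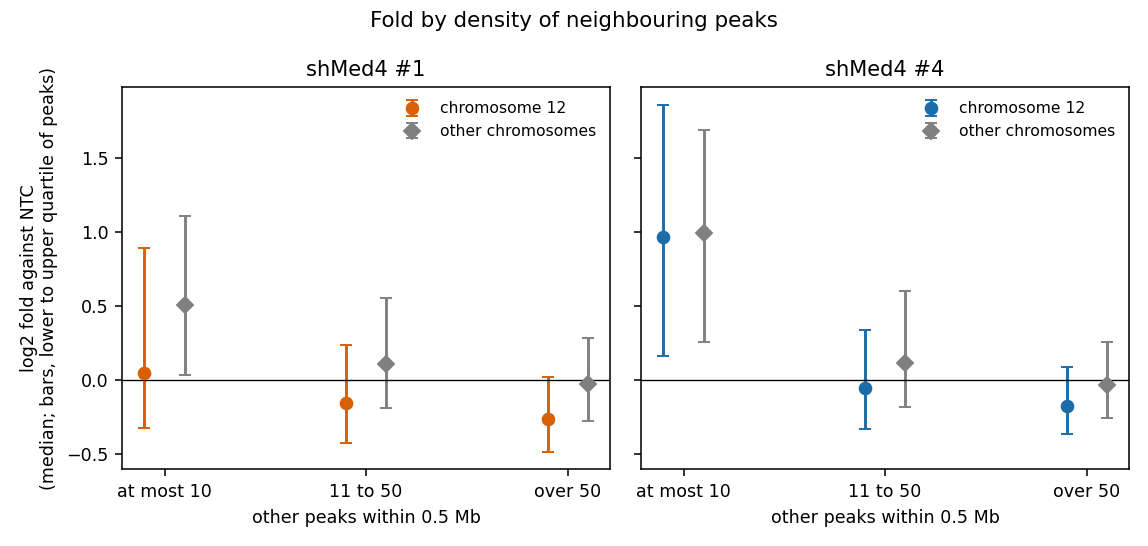
Median log2 fold against NTC (vertical axis; bars run from the lower to the upper quartile of peaks) by the number of other peaks within 0.5 Mb (horizontal axis), for hairpin #1 (left) and #4 (right), chromosome 12 as coloured circles and other chromosomes as grey diamonds. With more than 50 neighbours the chromosome 12 medians are -0.26 and -0.17, and with at most 10 they are 0.05 and 0.97.

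Consecutive peaks called the same way with both hairpins formed 24 runs of at least 6 peaks, 4 higher and 20 lower. Among all peaks of the chromosome 11.04% were called higher and 29.7% lower with both. Runs were not sought on other chromosomes, so their number is a description without a background. The longest higher runs adjoined in the 92 to 98 Mb stretch, with 12 peaks at chr12:95329773-95534331 (no protein-coding gene within 100 kb) and 20 peaks from 95563417 to 97736545 around Flrt2, a cell adhesion gene. A further 9 peaks were high at chr12:117127381-117481517, by Ptprn2, a secretory-granule phosphatase family gene, and Rapgef5, an exchange factor for Ras-family GTPases. Their median was 49.2, 49.3 and 56.5 counts in NTC, 100.04, 95.7 and 123.2 with #1, and 174, 183 and 111 with #4, so the hairpins overlapped there while both stood above NTC. The last higher run held 6 peaks by Fscb.

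The lower runs held up to 13 peaks. In a run of 12 peaks at Inf2, a formin gene, the median peak went from 1137, 1121 and 1143 counts in NTC to 902, 888 and 912 with #1 and 935, 942 and 948 with #4. All 12 of these peaks were strong, and the medians of the groups did not overlap. Next to it, 10 peaks across Adssl1, Siva1 and Akt1, the last a central survival kinase gene, had medians of -0.51 and -0.39. Runs of 11 peaks lay at Trappc6b, Pnn and Mia2 (-0.50 and -0.33) and at Bdkrb2, a bradykinin receptor gene (-0.67 and -0.68). Shorter runs lay at Traf3 (6 peaks, -0.996 and -0.63) and Tnfaip2 (6 peaks, -0.52 and -0.51), both of NF-kB-linked pathways, and at Osr1, a developmental transcription factor gene (6 peaks, -1.04 and -0.53).

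Among single peaks with a mean of at least 50, the highest folds with both hairpins were far from the chromosome's level. They are named by the nearest protein-coding gene, up to 100 kb away. That names a position, and no link between the peak and the gene was measured. A peak inside Rad51b (chr12:79302996-79303497), a gene of homologous recombination repair, held 136, 105 and 160.4 counts in NTC, 1194, 1107 and 1156 with #1 and 1274, 1308 and 1261 with #4. A peak inside Tdp1 (chr12:99918003-99918504), which removes trapped topoisomerase I from DNA, held 135, 120.1 and 142 in NTC, 1246, 1151 and 1153 with #1, and 980.1, 946 and 899.6 with #4. Each was higher in every shMed4 library than in any NTC library. A peak inside Ltbp2 (chr12:84794583-84795084), a matrix protein gene of the LTBP family, held 156, 136 and 168, then 1132, 1051 and 1143, then 924, 950.2 and 833. One inside Foxn3 (chr12:99467954-99468455), a forkhead repressor gene, held 71.8, 45.2 and 58.1, then 385, 324 and 376, then 506, 495 and 496. Ltbp2 was lower with #4 than with #1 and Foxn3 higher, and the libraries of the hairpins did not overlap at either.

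The other high peaks were weaker in NTC. A peak inside Flrt2 (chr12:95733990-95734491) averaged 13.3 ± 6.67 counts in NTC (SD, n = 3 here and below), 152 ± 24.4 with #1 and 166 ± 33.6 with #4, and had the highest log2 folds of the chromosome under this rule (3.51 and 3.63, SE 0.24). A peak 1.75 kb from Foxa1, the pioneer factor of luminal cells, averaged 10.8 ± 3.75, 68.4 ± 19.0 and 76.1 ± 8.23. Inside Syne2, a nuclear envelope linker gene, a peak averaged 37.6 ± 1.12, 303 ± 38.7 and 184 ± 42.2. A peak 52.0 kb from Itgb8, an integrin subunit gene, averaged 24.9 ± 10.4, 196 ± 33.4 and 103 ± 22.5. Map3k9 and Mlh3, described above at their start sites, complete the 10. The log2 folds of the 10 peaks ran from 2.50 to 3.51 with #1 and from 2.08 to 3.63 with #4.

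The lowest folds were mostly lower with #1 than with #4. A peak inside Lrrc9 (chr12:72489973-72490474) held 785, 769 and 735 counts in NTC, 119, 94.1 and 107 with #1, and 357, 379 and 347 with #4. A peak inside Daam1 (chr12:71936595-71937096), a formin gene of non-canonical Wnt signalling, held 604, 625 and 549, then 108, 107 and 134, then 223, 198 and 229. At both, the 3 groups were separate, with #4 in between. A peak 79.8 kb from Ahr, the aryl hydrocarbon receptor gene, averaged 187 ± 11.05 in NTC, 34.1 ± 12.1 with #1 and 95.8 ± 9.05 with #4. A peak inside Hdac9, a class IIa histone deacetylase gene, averaged 245 ± 11.7, 54.9 ± 6.49 and 116 ± 10.6.

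Peaks by Rhob, a small GTPase gene (454 ± 20.7, 114 ± 15.0 and 215 ± 21.4), and Taf1b, a subunit gene of the RNA polymerase I initiation factor (91.0 ± 5.68, 19.9 ± 4.87 and 49.1 ± 10.3), had the same order. At the Ncoa1 and Nampt peaks the hairpins were close. A peak inside Ncoa1, a nuclear receptor coactivator gene, averaged 387 ± 6.74 in NTC, 121 ± 6.45 with #1 and 134 ± 11.1 with #4. A peak 54.4 kb from Nampt, an enzyme gene of NAD synthesis from nicotinamide, averaged 288 ± 47.7, 63.2 ± 6.56 and 60.3 ± 9.29.

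**Figure D4:**
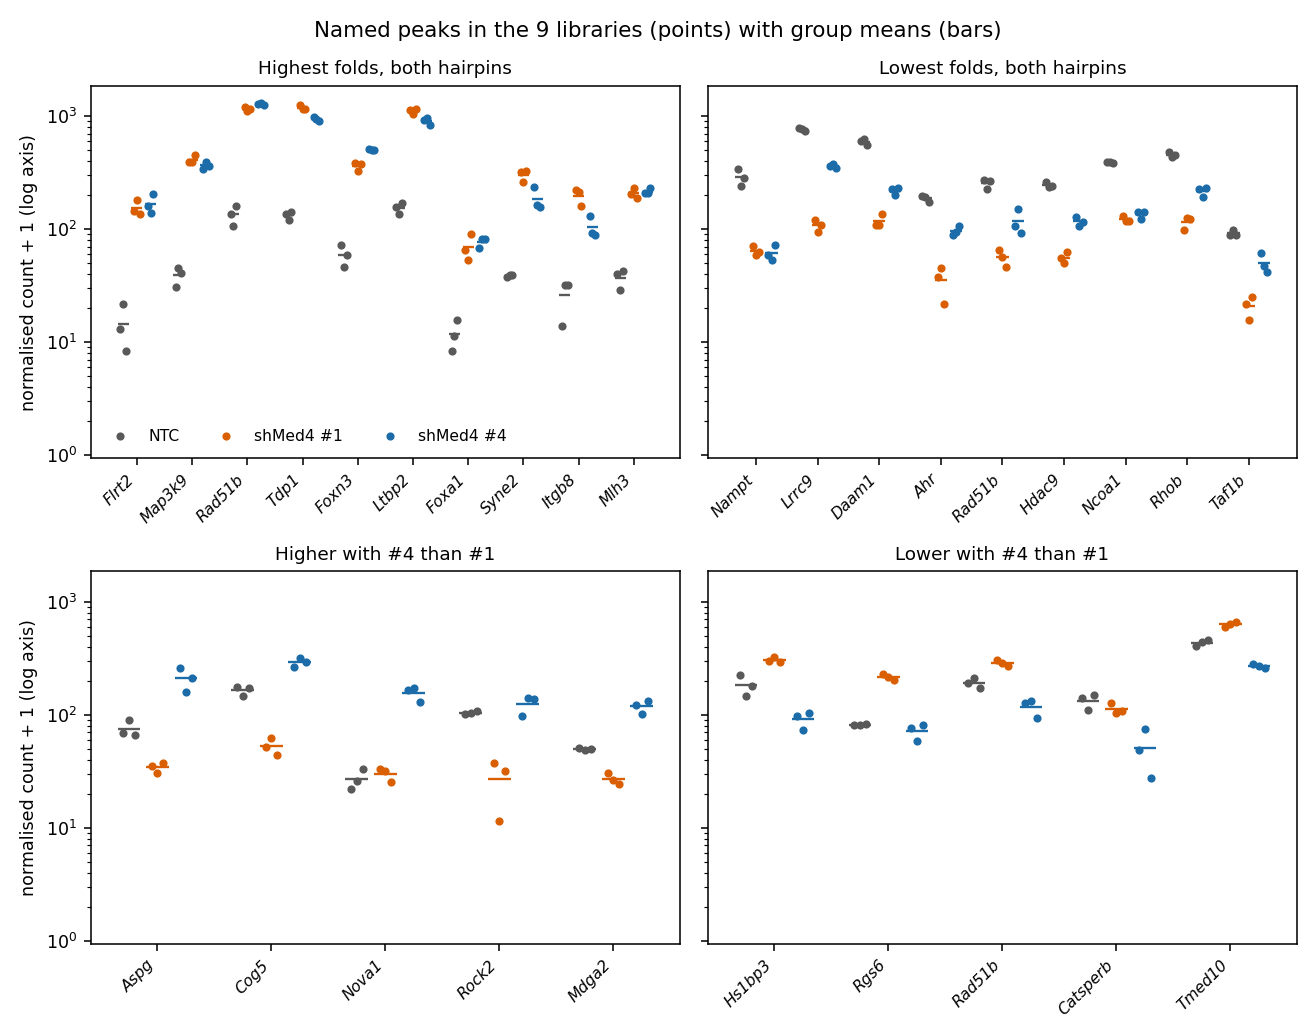
Normalised count plus 1 (vertical log axis) of named chromosome 12 peaks (horizontal axis, by nearest gene) in the 9 libraries, grey for NTC, orange for hairpin #1 and blue for #4, with group means as bars. The upper panels show peaks far above or below NTC with both hairpins, such as Map3k9 (mean 38.0 in NTC, 410.2 and 365 with the hairpins), and the lower panels show peaks that differ between the hairpins, such as Aspg (33.3 with #1, 208 with #4).

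Rad51b alone held 3 named peaks with different patterns. The peak at 79302996 was high with both hairpins (log2 folds 3.12 and 3.27). That at 79577451 was low with both, at 268, 225 and 268 counts in NTC, 64.8, 55.2 and 45.1 with #1 and 106, 151 and 91.7 with #4. The peak at 79645686 held 188, 209 and 173 in NTC, 302, 286 and 271 with #1 and 126, 130.5 and 91.7 with #4, so the hairpins lay on opposite sides of NTC. Near the gene's start, a peak shared with another gene averaged 2279 ± 46.6 in NTC, 1872 ± 75.3 with #1 and 1976 ± 131 with #4, a fold close to that of the chromosome.

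Of the 3 strongest peaks in NTC, the first stood close to its NTC level and the others lower with #1. The highest of the chromosome in NTC lay inside Frmd6 (chr12:70890950-70891451), a FERM-domain gene of the Hippo pathway, at 9126, 9031 and 8905 counts, against 8471, 8045 and 8731 with #1 and 8460.0, 8734 and 9112 with #4. The groups of NTC and #4 overlapped there. The next peaks, 7.5 kb from Cdc42bpb and 6.9 kb from Gpr65, averaged 6532 ± 112 and 6524 ± 82.2 in NTC, 5469.9 ± 81.3 and 5239.6 ± 173 with #1, and 6266 ± 207 and 5866 ± 442 with #4.

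Genes of the chromosome were also read by function, each at its gene-end peak of the highest mean. The 8 lists hold 175 genes of the chromosome, which had 128 distinct gene-end peaks. Of those 128, 110 were called lower and 6 higher with #1, and 95 lower and 9 higher with #4, with medians of -0.32 and -0.21. These stand beside -0.33 and -0.23 for all 527 gene-end peaks of the chromosome, and beside background calls of 24.9% and 24.3% lower over all peaks. When every library was centred on its median level over chromosome 12 peaks, the medians of the 128 moved to -0.18 with #1 and -0.15 with #4. Of the 128, 79 were then called lower with #1 and 65 with #4. This centring raised the folds by less than the size of the chromosome's median folds (-0.24 and -0.15). Part of the low folds therefore remains in these calls. Some peaks serve 2 genes, as named below.

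The calls of each list can be read against those of all 527 gene-end peaks of the chromosome, of which 405 (76.9%) were called lower with #1 and 350 (66.4%) with #4. No difference between lists was tested. In the list of chaperones, translation and protein turnover 21 of 23 measured members were called lower with #1 and 19 with #4. Rps29, a ribosomal protein gene, went from 3172 ± 43.6 to 2398 ± 55.2 and 2559 ± 136, and Tmed10, a cargo receptor gene of the early secretory pathway, from 1845 ± 49.8 to 1501 ± 54.2 and 1446 ± 31.9. Bag5, a cochaperone gene that shares its peak with Coa8, went from 669 ± 40.7 to 496 ± 13.8 and 506 ± 18.5. The exception was Psma6, a proteasome subunit gene, called higher with both (log2 folds 0.19 and 0.72). In the metabolism list 22 of 23 were called lower with #1 and 21 with #4, and none higher. Acot1 and Acot2, neighbouring acyl-CoA thioesterase genes, went from 988 ± 32.5 to 646 ± 43.3 and 709.5 ± 28.5, and from 1758 ± 8.43 to 1299 ± 50.5 and 1361 ± 16.7. As near-identical copies they may share reads. Dhrs7, a short-chain dehydrogenase gene, went from 2341 ± 47.8 to 1840.4 ± 79.7 and 1752 ± 82.3.

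In the list of replication, repair and cell cycle 14 of 15 were called lower with #1 and 11 with #4, with none higher. Mnat1, an assembly factor gene of the CDK-activating kinase, went from 788 ± 14.9 to 522 ± 17.5 and 618 ± 30.4. Ncapg2, a condensin II subunit gene, went from 2228 ± 171 to 1659 ± 44.6 and 1832 ± 220.1. Fancm, a Fanconi anaemia helicase gene whose peak is shared with Fkbp3, went from 2086 ± 85.3 to 1509.6 ± 72.3 and 1792 ± 208. Mlh3 is read in this list at its other end, where the log2 folds were -0.15 and -0.16, unlike the high peak at its start.

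Among kinase, phosphatase and GTPase genes 16 of 18 were called lower with #1 and 13 with #4, and Map3k9 alone was higher. Ppp2r5c, a regulatory subunit gene of phosphatase 2A, went from 1329 ± 49.6 to 885 ± 51.3 and 1017 ± 94.95. Among matrix, adhesion and TGF-beta genes 15 of 16 were called lower with #1 and 11 with #4. Lamb1, a laminin chain gene, went from 1203 ± 58.5 to 839 ± 16.4 and 1013 ± 12.8, and Rhoj, a small GTPase gene, from 1698 ± 19.2 to 1362 ± 28.8 and 1305 ± 20.2. The start-site peak of Frmd6 went from 1821 ± 88.7 to 1367 ± 21.9 and 1393 ± 124. Matn3, a cartilage matrix gene, was the exception (0.23 and 0.47, higher with both).

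Of 15 lineage and hormone factors 10 were called lower with each hairpin. Twist1, a factor of epithelial-mesenchymal transition, went from 1883 ± 119 to 1413 ± 71.1 and 1520.0 ± 183, and Yy1, a ubiquitous zinc finger factor, from 1539 ± 127 to 1135 ± 80.2 and 1262 ± 169. Esrrb, an orphan nuclear receptor gene, was higher, at 186, 179 and 159.5 counts in NTC, 368, 409.7 and 398 with #1 and 445, 463 and 489 with #4. Of 12 stress, AP-1, NF-kB and interferon genes 8 were called lower with each hairpin. Fos, an AP-1 subunit gene, went from 1551 ± 88.8 to 1261 ± 66.1 and 1234 ± 95.2, and Zfp36l1, an mRNA decay factor gene whose peak also serves a predicted gene, from 1106 ± 123 to 784 ± 34.0 and 783 ± 64.0. Ifi27, an interferon-induced gene that shares its peak with Ifi27l2a, went from 1384 ± 15.5 to 1125 ± 43.8 and 1063 ± 43.5. Of 6 measured neural genes 4 were called lower with #1 and 2 with #4. Dpf3, a chromatin reader gene of the BAF complex, went from 1154 ± 59.9 to 917 ± 35.7 and 925 ± 36.3, and Dock4, a Rac exchange factor gene whose peak is shared with Zfp277, from 3835 ± 45.1 to 3005 ± 147 and 3408 ± 366. Kcnk10 was higher with both hairpins. With the libraries centred on their chromosome 12 medians, 2 of the 6 neural genes were called lower with #1 and 1 with #4, and their median with #4 turned from -0.03 to 0.02.

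The direct comparison of the hairpins asked whether hairpin #4 gave the same levels on this chromosome as hairpin #1. The median difference was 0.09 (log2, #4 minus #1), against -0.01 on other chromosomes. Chromosome 12 ranked 16 of the 20 chromosomes in this, counted from the lowest. The median was larger on chromosomes 2 (0.165), 15 (0.114), 18 (0.112) and 16 (0.109). On those, 37.4%, 30.0%, 30.2% and 29.3% of peaks were called higher with #4 than with #1. In limma over all tested peaks, 2375 of the 5708 peaks differed at an adjusted p under 0.05, of which 1588 (27.8%) were higher with #4 and 787 (13.8%) lower. Over all tested peaks 41.6% differed, 20.4% higher and 21.2% lower. With every library centred on its chromosome 12 median, the calls were 1089 higher and 1117 lower, so the higher share of calls went from 66.9% to 49.4%. The library medians relative to the other chromosomes averaged -0.236 ± 0.0040 with #1 and -0.136 ± 0.0052 with #4 (SD, n = 3 each), a difference of 0.0996. An exact two-sided permutation test over the 20 splits gave p = 0.1, the smallest that 3 against 3 libraries allow.

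Weak peaks had the larger median difference between the hairpins, although more strong peaks were called. Of the 2853 weak peaks 762 were higher with #4 and 244 lower, with a median difference of 0.17, and of the 2855 strong peaks 826 were higher and 543 lower, with a median of 0.05. On other chromosomes weak and strong peaks had medians of 0.06 and -0.05. Of weak peaks there, 20.5% were higher and 12.5% lower, beside 26.7% and 8.55% on chromosome 12. Of strong peaks there, 19.6% were higher and 30.5% lower, beside 28.9% and 19.0% on chromosome 12. The 2 shallowest of the 9 libraries were both of hairpin #4 (44.8 and 61.0 M reads), and the part of depth in this was not tested. Near start sites 123 of 411 peaks (29.9%) were higher with #4 and 14 (3.41%) lower, against 12.9% and 17.0% on other chromosomes.

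In the windows, 11 of 24 differed between the hairpins when the median level of each window was fitted in limma, all of them higher with #4. Over all 515 windows of the genome 48.9% differed and 25.0% were higher. The largest difference was at 45 to 50 Mb (0.39, SE 0.05, limma adjusted p = 3.2e-05), followed by 90 to 95 Mb (0.27, SE 0.04, adjusted p = 0.00011). When each peak was first centred on its own mean over the 9 libraries, a fit added after the data had been seen, 23 of 24 windows were higher with #4. Over the genome that fit called 72.8% of windows, 33.6% higher and 39.2% lower. The exception was 20 to 25 Mb (0.03, SE 0.02, limma adjusted p = 0.15), which the fit of levels had called (0.17, SE 0.04, adjusted p = 0.0036).

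**Figure D5:**
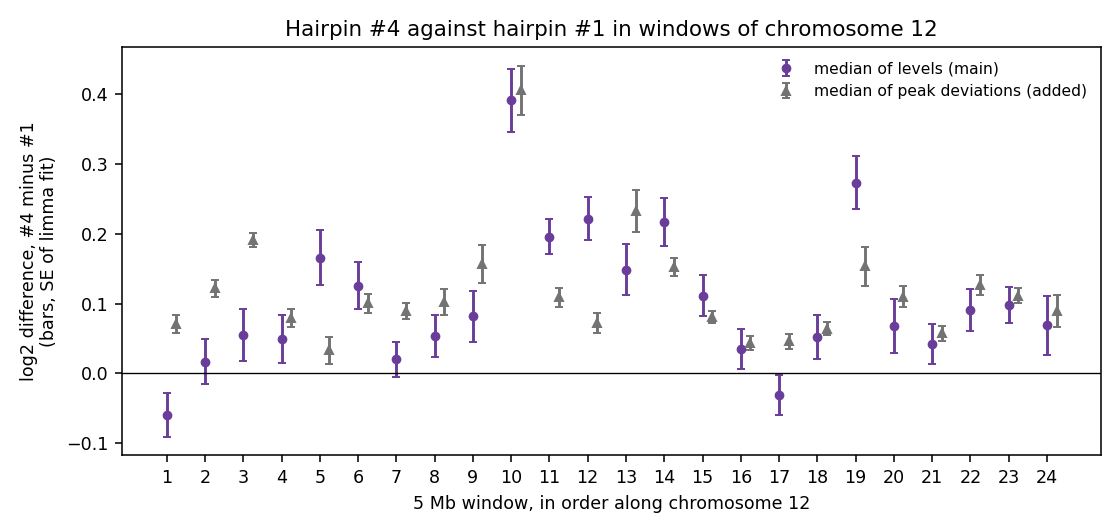
Difference between the hairpins (log2, #4 minus #1, vertical axis; bars are the SE of the limma fit) in 5 Mb windows in order along chromosome 12 (horizontal axis). Purple circles are fits of the median level of a window and grey triangles fits of the median deviation of its peaks. They differ between the hairpins in 11 and 23 of 24 windows, and the largest is 45 to 50 Mb, at 0.39 for the level.

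At single peaks the largest differences were of several fold. A peak at the start of Aspg, an asparaginase gene (chr12:112106487-112106988), held 34.4, 29.2 and 36.3 counts with #1 and 258, 159 and 208 with #4, around 67.8, 89.3 and 64.6 in NTC (log2 difference 2.59, SE 0.20, limma adjusted p = 2.8e-13). A peak inside Cog5 (chr12:31686716-31687217), a Golgi tethering complex gene, held 51.2, 61.7 and 42.9 with #1 and 260.4, 318 and 291 with #4, around 174, 145 and 171 (2.47, SE 0.15, limma adjusted p = 4.1e-16). In both, the hairpins lay on opposite sides of NTC with no overlap. A peak inside Nova1, a neuronal splicing factor gene (chr12:46746086-46746587), held 21.0, 24.6 and 31.9 in NTC, 32.0, 30.8 and 24.2 with #1 and 164, 170.1 and 127 with #4 (2.37, SE 0.24, limma adjusted p = 4.6e-10). It lies in the 45 to 50 Mb window, and its NTC and #1 libraries overlapped. A peak 30.3 kb from Rock2, a kinase gene of actomyosin contraction, averaged 103 ± 3.72 in NTC, 25.8 ± 13.5 with #1 and 123.3 ± 23.7 with #4 (2.36, SE 0.27, limma adjusted p = 3.9e-09). One inside Mdga2, a synaptic adhesion gene, averaged 48.2 ± 0.999, 26.0 ± 3.33 and 118 ± 15.1 (2.14, SE 0.22, limma adjusted p = 7.4e-10).

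In the other direction, a peak 45.1 kb from Hs1bp3 (chr12:8388669-8389170) held 224, 146 and 178 counts in NTC, 295, 322 and 294 with #1 and 96.0, 71.6 and 102 with #4 (log2 difference -1.76, SE 0.14, limma adjusted p = 1.1e-12). The 3 groups were separate there. A peak inside Rgs6, a regulator of G-protein signalling gene (chr12:82731585-82732086), held 79.9, 80.1 and 81.8 in NTC, 228, 213 and 200.3 with #1 and 75.3, 57.6 and 79.4 with #4 (-1.59, SE 0.16, limma adjusted p = 1.9e-10). The #1 libraries stood far above, and NTC and #4 nearly met. A peak 46.4 kb from Tmed10 (chr12:85420914-85421415) averaged 433 ± 23.1 in NTC, 627 ± 35.9 with #1 and 269 ± 11.9 with #4 (-1.22, SE 0.08, limma adjusted p = 4.4e-15), unlike the peak at the gene's end, where the hairpins differed by -0.05. The Rad51b peak at 79645686 differed by -1.31 (SE 0.13, limma adjusted p = 1.2e-10). A peak 61.4 kb from Catsperb, a sperm calcium channel subunit gene, averaged 132 ± 20.1, 112 ± 12.9 and 49.4 ± 23.9 (-1.27, SE 0.22, limma adjusted p = 1.5e-05).

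Among the gene lists, 50 of the 128 gene-end peaks were higher with #4 than with #1 and 3 lower, beside 20.4% and 21.2% over all peaks and 155 (29.4%) and 25 (4.74%) of the 527 gene-end peaks. The matrix, adhesion and TGF-beta list had 12 of 16 higher and 0 lower, among them Sdc1, the syndecan-1 gene (0.35, SE 0.07, limma adjusted p = 4.8e-05), and Lamb1 (0.27, SE 0.06, limma adjusted p = 0.00021). The metabolism list had 7 of 23 higher and 1 lower, the latter Dio2, which activates thyroid hormone (-0.45, SE 0.12, limma adjusted p = 0.0024). The largest difference in any list was at Rsad2, an interferon-induced antiviral gene, which averaged 47.0 ± 5.21 in NTC, 39.0 ± 0.600 with #1 and 118 ± 19.1 with #4 (1.57, SE 0.21, limma adjusted p = 1.5e-07). With the libraries centred on their chromosome 12 medians, 11 of the 128 were higher with #4 and 8 lower. In the matrix, adhesion and TGF-beta list 2 of 16 were then higher and 1 lower.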

How the data were processed

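The deposited table holds normalised counts for 146734 peaks of 501 bases in 9 libraries; its values are a signal made by the authors, normalised with DESeq2 as its name says, and not raw counts. Among the tools in the submitters' processing notes are BWA, MACS2, Subread with featureCounts, and Trim Galore, and the mouse builds are mm10 and GRCm38. Versions, the pooling of libraries before peak calling and the base of the coordinates (0 or 1) are not given in the sources used here. Coordinates are printed as deposited.

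The log2 of the value plus 1 was fitted with limma 3.58.1 in R 4.3.3 (package data.table, version 1.17.8) over all peaks with a mean of at least 10 (146729 peaks, all 5708 chromosome 12 peaks among them), with one fit of the 3 groups, and p-values were adjusted by Benjamini-Hochberg over all of them (threshold 0.05). Fold changes are on that scale, which understates the change of low peaks. The fit was tested on simulated data. Library depth was read from the step between values, of which 100% were whole multiples within 0.001 reads, and depth limits the precision of weak peaks.

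Windows were 5 Mb with at least 20 peaks, and 1 Mb for steps. Steps split the windows into stretches of at least 5 windows. Neighbours were counted within 0.5 Mb, gene ends within 1 kb and nearest genes within 100 kb. Python 3.11.15 with numpy 2.4.6, pandas 2.3.3, scipy 1.17.1 and matplotlib 3.10.9 was used for the rest. Named peaks, of mean at least 50 and 1 per gene and rule, were the 10 highest and 10 lowest over both hairpins among those called with each, the 5 highest and 5 lowest called between hairpins, 3 per gene list with the lowest p over both hairpins, and the 3 strongest. Other list members are named as exceptions or examples and were chosen after their values were seen, as were the runs and promoters described. A few peaks that the rules took are not reported here. The chromosome, the lists and the rules were chosen with earlier results of these data known. Alternatives covered scaling, pseudocount, low-value filter, window size, peak height and left-out libraries.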

Additional observations from a re-analysis of the deposited data

Results flagged for a closer look

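The 5 peaks named as most higher with #4 and the 5 named as most lower had folds against NTC that differed between the hairpins in the direct limma test (#4 minus #1, log2). Higher with #4 were those of Aspg (2.59), Cog5 (2.47), Nova1 (2.37), Rock2 (2.36) and Mdga2 (2.14). Lower with #4 were those of Hs1bp3 (-1.76), Rgs6 (-1.59), Rad51b (-1.31), Catsperb (-1.27) and Tmed10 (-1.22). They were picked as the most different of the chromosome, so their size is a description. The hairpins share the NTC libraries.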

How the results depend on the processing

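Depth, at 108 to 251.5 reads in the median chromosome 12 peak, limits what weak peaks can show. The 2 planned count tests on recovered reads were not run, so the calls rest on limma alone. With windows of 2 Mb, 24 of 48 windows differed between hairpins (22 higher with #4, 2 lower) against 11 of 24 at 5 Mb, and 23 differed with peak deviations, a fit added after seeing the data. The chromosome's median relative to the others was -0.230 over strong and -0.256 over weak peaks with #1, and -0.124 and -0.152 with #4. Their difference was 0.111 over weak peaks. The best step moved to 102 Mb (#1) and 100 Mb (#4) with 2 Mb windows, and to 100 Mb in libraries 1 and 2 of #4. Leaving out 1 library at a time gave 3327 to 3816 calls for #1, 2771 to 3229 for #4, 2023 to 2319 between hairpins and 10 to 12 windows, with relative medians of -0.240 to -0.236 (#1), -0.143 to -0.134 (#4) and 0.0920 to 0.0985 (difference). The strongest peak, inside Frmd6, turned from -0.10 to 0.040 with #1 when centred on the chromosome 12 median. Its call with #1 was lost without NTC library 1, 2 or 3, #1 library 1 or 2, or #4 library 2. Same-numbered libraries did not deviate together (correlations of -0.01 to 0.07), and a replicate block gave 3767, 3293 and 2465 calls and 11 windows. Of the values of named peaks under these alternatives, 1549 kept their direction and call and 10 lost the call, which besides Frmd6 were at the Cdc42bpb, Gpr65 and Dock4 peaks under centring and at Dock4 without #4 library 1. The cause was not tested.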
